A study of Mus musculus with 4 samples.

Results

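The collagen and laminin genes of the mouse were described in cortex of APPswe/PS1ΔE9 mice (APP) and WT mice. Members were the protein-coding genes named Col with a type number, the letter a and a chain number, or Lama, Lamb or Lamc followed by a digit. The deposited table gives many of these symbols in capitals or under older names, or leaves them blank. Of the genes described here the pattern as written therefore finds 14 with letter case kept and 49 with letter case ignored, and symbols were instead taken from GENCODE M21 (GRCm38) through the deposited transcript identifiers. The members described are 54, 44 collagens and 10 laminins, of 15391 protein-coding genes and 23602 features in all. RNA came from the cortex of 2 male APPswe/PS1ΔE9 double transgenic mice, which carry mutant human APP and PS1 and are a model of AD, and of 2 male WT mice. All 4 mice were 12 months old and on a C57BL/6 background. The WT controls were C57BL/6J mice and are not described as littermates of the transgenic mice. The libraries are called APP.3, APP.4, WT.1 and WT.2 after the headings of the table. They held 28525117, 31392983, 43881196 and 35623228 counts of reads on transcripts, and values per library are given in this order. The groups were tested with the quasi-likelihood method of edgeR, and a gene was called where its FDR over all 23602 features was under 0.05 and it changed by a factor of 1.5 or more. The smallest p that exact permutation of 2 against 2 mice allows is 0.333 (two-sided), so every adjusted p-value draws on the dispersion that edgeR estimates over all features together.

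Collagens are extracellular proteins in which chains wind into a triple helix. Some form fibrils, type IV forms the network of basement membranes, type VI forms beaded filaments, and the fibril-associated collagens with interrupted helices (FACIT) sit on the surface of fibrils. Laminins are trimers of an alpha, a beta and a gamma chain and make up the other network of the basement membrane. In the brain, basement membranes ensheath the blood vessels and underlie the meninges, and the vascular basement membrane is a known site of amyloid deposition in AD.

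Of the 54 members, 3 were called and 51 were not. Col16a1, Col9a3 and Col6a3 were higher in APP. That was 5.56% of members, where 0.890% of all features and 1.29% of protein-coding genes were called. Called higher were 3 members, against 0.847% of all features and 1.24% of protein-coding genes. The share called lower was 0.0424% of all features and 0.0455% of protein-coding genes. No further member had an adjusted p under 0.05, and 5 members had an unadjusted p under 0.05, against 10.9% of all features. The median log2 fold change was 0.03 over the members and 0.00 over all features, with 31 members estimated higher and 23 lower in APP. The groups did not overlap in 19 members, 12 of them higher and 7 lower in APP, a share below the 40.8% of all features. The members together summed to 84.1 and 83.9 RPKM in APP and 81.4 and 77.5 RPKM in WT, slightly higher in both APP libraries. This sum was not tested. CPM here is the count scaled by the TMM library size, and RPKM is CPM per kilobase of transcript.

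**Figure D1:**
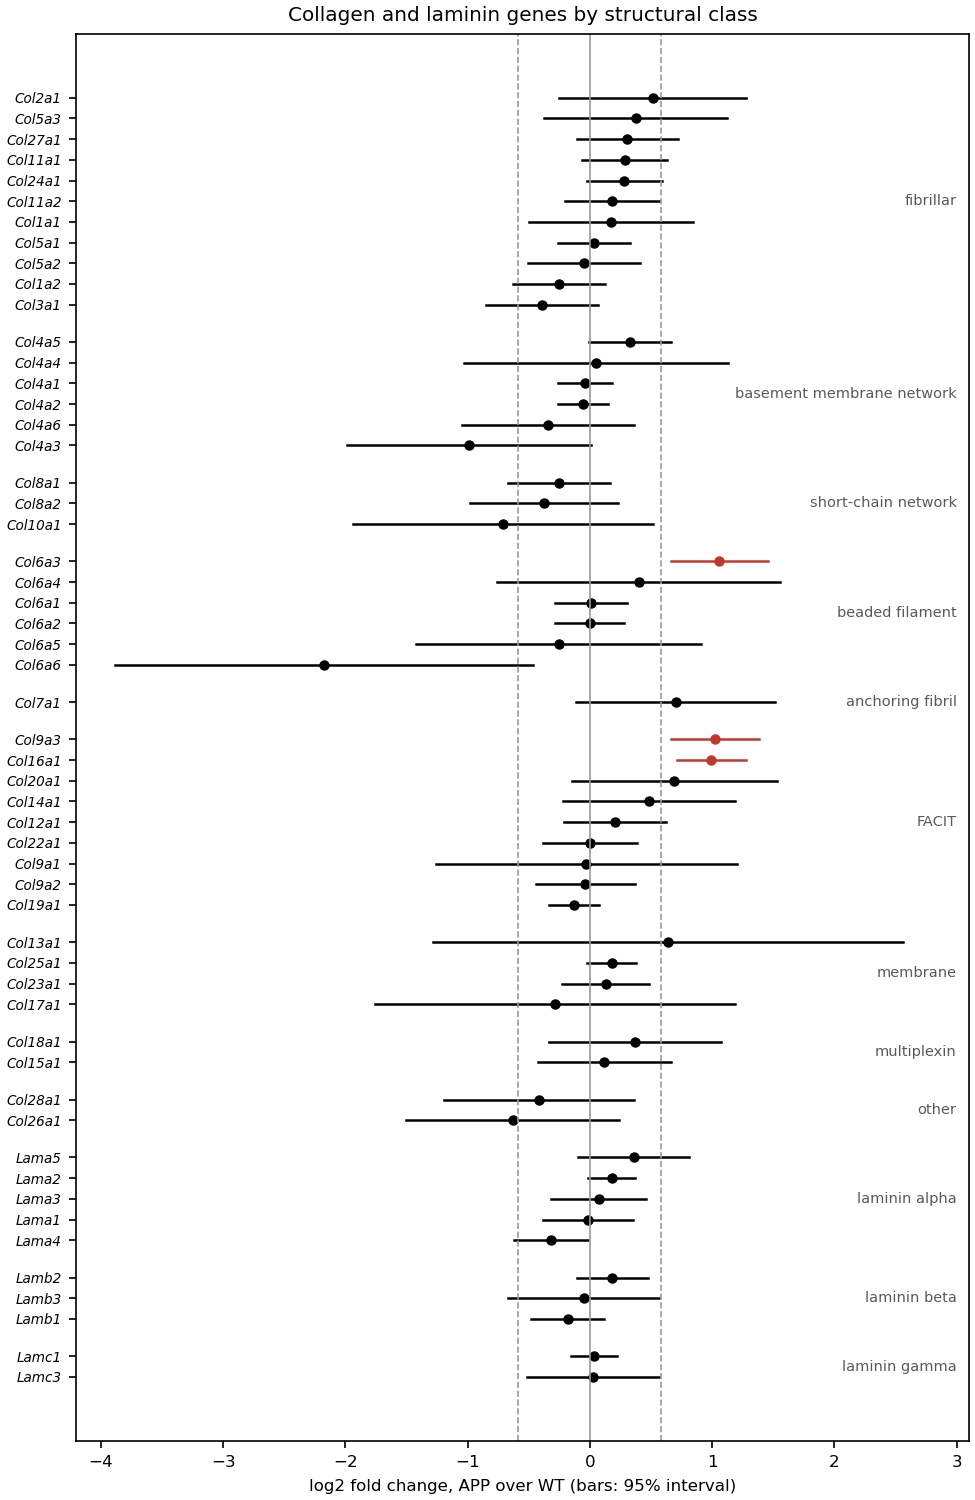
Log2 fold change of APP over WT for each of the 54 genes, grouped by structural class. Bars give the 95% interval derived from the edgeR test. Dashed lines mark a fold change of 1.5 in either direction, and called genes are red. The called genes Col6a3, Col9a3 and Col16a1 lie near 1, while 19 of the other genes have intervals wholly between the dashed lines.

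Many members were measured at low depth. The mean level was at least 3 CPM in 28 members and under 1 CPM in 11. Among the 51 members that were not called, the 95% interval of 19 lay wholly within a fold change of 1.5 in either direction. The interval of the other 32 reached that fold, and 25 of these were under 3 CPM, and a change of that size was not excluded in any of the 32. The median absolute log2 difference between the mice of a group was 0.37 in APP and 0.21 in WT, and between the group means it was 0.25. In the 28 members of at least 3 CPM these were 0.27, 0.20 and 0.16. Means of 2 libraries vary less than single libraries, so the values within and between groups are not on the same scale.

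Among the 9 FACIT genes, Col16a1 and Col9a3 rose in APP and 7 did not pass the test. Col16a1 encodes the chain of type XVI collagen, a homotrimer associated with small fibrils and basement membranes. It lies on chromosome 4, from 130047840 to 130099283 on the plus strand of GRCm38, and was counted on the transcript ENSMUST00000044565. The counts of Col16a1 were 432 and 443 in APP, and 355 and 232 in WT. This is 14.9 and 14.3 CPM in APP against 8.07 and 6.54 CPM in WT. Both APP libraries were above both WT libraries and lay close to each other. The means were 14.6 ± 0.466 CPM in APP and 7.31 ± 1.08 CPM in WT (SD, n = 2 each). The log2 fold change was 0.99 (SE 0.13, 95% interval 0.71 to 1.28, edgeR adjusted p = 0.00432). Without WT.2 the log2 fold change was 0.86 and the edgeR adjusted p was 0.0504, and it was 0.0156 or lower without any other library. In bulk tissue a change in the number of cells of a type and a change in RNA per cell cannot be told apart. This holds for every level given here.

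The promoters of Col16a1 and Col6a3, which both rose, are shown because RefSeq windows were at hand for these called genes, as the 250 bases before the start (GRCm38.p6), read 5′ to 3′ on the strand of the gene. Capitals mark matches to 3 motifs. A GC box was searched as GGGCGG, the CCAAT box as the letters of its name and the TATA box as TATAAA, each on both strands. The window of Col16a1 is chr4:130047590-130047839 on the plus strand and that of Col6a3 is chr1:90843972-90844221 on the minus strand.
Col16a1: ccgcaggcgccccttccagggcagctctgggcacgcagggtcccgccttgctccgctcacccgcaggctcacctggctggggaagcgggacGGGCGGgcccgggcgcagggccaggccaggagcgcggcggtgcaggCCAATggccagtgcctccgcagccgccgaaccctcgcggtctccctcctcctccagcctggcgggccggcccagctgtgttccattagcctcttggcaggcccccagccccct
Col6a3: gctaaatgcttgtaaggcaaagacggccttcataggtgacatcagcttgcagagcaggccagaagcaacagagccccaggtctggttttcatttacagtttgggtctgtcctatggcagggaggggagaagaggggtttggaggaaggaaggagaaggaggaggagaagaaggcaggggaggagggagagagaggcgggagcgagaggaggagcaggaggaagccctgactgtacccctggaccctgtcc
The Col16a1 window has 75.6% G and C with 1 GC box and 1 CCAAT box, and the Col6a3 window has 57.2% G and C with none of these motifs. Of 32851 promoter windows of this length, 32.7% hold a GC box, 33.8% a CCAAT box and 12.4% a TATA box. Of the 40 members matched to a window, 23 hold a GC box (57.5%), 14 a CCAAT box (35%) and 5 a TATA box (12.5%). Their median G and C content is 59.7%, and that over all windows is 52.4%. Members were counted as genes and the background as windows, and a gene may have several windows. The shares and medians of members and of windows are therefore in different units, and a difference between them was not tested. The motifs are matches of letters and not tested sites.

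Col9a3 encodes the alpha 3 chain of type IX collagen, which joins the alpha 1 and alpha 2 chains in a heterotrimer on the surface of cartilage fibrils. Its gene is on chromosome 2, from 180597790 to 180622189 on the plus strand, and it was counted on ENSMUST00000103059. The libraries gave 240 and 209 counts in APP, and 173 and 121 in WT. In CPM, Col9a3 stood at 8.30 and 6.74 in APP and at 3.93 and 3.41 in WT, so that the groups did not overlap. The means were 7.52 ± 1.10 CPM in APP and 3.67 ± 0.368 CPM in WT (SD, n = 2 each), with a log2 fold change of 1.03 (SE 0.16, 95% interval 0.66 to 1.39, edgeR adjusted p = 0.0135). The edgeR adjusted p rose to 0.0894 without WT.1 and to 0.151 without WT.2, at log2 fold changes of 1.13 and 0.93. The neighbouring gene Tcfl5 overlaps Col9a3 on the opposite strand. Tcfl5 had 21 and 21 counts in APP, 28 and 24 in WT, and a log2 fold change of 0.10 (edgeR adjusted p = 0.960). The reads were strand-specific, but whether strand was used in counting is not stated.

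The partner chains of Col9a3 did not pass the test. Col9a2 had 3.53 and 4.22 CPM in APP and 4.36 and 3.55 CPM in WT, with overlapping groups and a log2 fold change of -0.04 (95% interval -0.44 to 0.37). Col9a1 was close to the limit of the depth, with 8 and 9 counts in APP and 14 and 9 in WT. The ratio of Col9a3 to Col9a2 per length was 2.42 and 1.64 in APP against 0.926 and 0.987 in WT, so Col9a3 exceeded Col9a2 in the APP libraries and was level with it in the WT libraries. An exact two-sided permutation test of this ratio gave p = 0.333, the smallest value that 2 against 2 libraries can give, so it decides nothing. As Col9a3 was chosen because it was called, the ratio follows from that call and is not separate evidence.

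The other FACIT genes were Col12a1, Col14a1, Col19a1, Col20a1 and Col22a1, with log2 fold changes from -0.13 to 0.69. Col14a1, which binds the proteoglycan decorin on fibrils, had 2.01 and 1.77 CPM in APP and 1.73 and 0.903 CPM in WT, a log2 fold change of 0.49 with an interval from -0.22 to 1.19. Its groups were apart only by the gap between APP.4 and WT.1. Col19a1, a FACIT made by neurons of the brain, was far higher than Col14a1 and gave 36.7 and 42.7 CPM in APP and 42.3 and 44.5 CPM in WT. Its groups overlapped, with a log2 fold change of -0.13 (95% interval -0.33 to 0.07).

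Of the 6 type VI genes, Col6a3 rose and the other 5 did not pass the test. Type VI collagen is built from an alpha 1 and an alpha 2 chain with a further chain, of which alpha 3, the product of Col6a3, is the common one. Col6a3 lies on chromosome 1, from 90765923 to 90843971 on the minus strand. It had 209 and 178 counts in APP and 149 and 99 in WT, or 7.23 and 5.74 CPM against 3.39 and 2.79 CPM. Both APP libraries were above both WT libraries. The means were 6.48 ± 1.05 CPM in APP and 3.09 ± 0.421 CPM in WT (SD, n = 2 each), with a log2 fold change of 1.06 (SE 0.18, 95% interval 0.66 to 1.46, edgeR adjusted p = 0.0184). The edgeR adjusted p was 0.0934 without WT.1 and 0.191 without WT.2, at log2 fold changes of 1.21 and 0.93. Of its 2 coding transcripts, ENSMUST00000056925 held most of the reads, with 188 and 168 counts in APP and 141 and 85 in WT. It passed both cut-offs when each transcript was tested on its own (log2 fold change 1.08, edgeR adjusted p = 0.00467). The second, ENSMUST00000097653, had 21, 10, 8 and 14 counts and overlapping groups.

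Col6a1 and Col6a2, the obligate partners of Col6a3, did not pass the test. Col6a1 gave 28.6 and 37.0 CPM in APP and 36.1 and 29.1 CPM in WT, a log2 fold change of 0.01 (95% interval -0.29 to 0.30). Col6a2 gave 8.82 and 7.73 CPM in APP and 8.46 and 8.07 CPM in WT, a log2 fold change of 0.00 (95% interval -0.28 to 0.28). For both genes the groups overlapped and the interval excludes a fold change of 1.5. The ratio of Col6a3 to Col6a2 per length was 0.327 and 0.293 in APP and 0.159 and 0.138 in WT, and that of Col6a3 to Col6a1 was 0.104 and 0.0633 against 0.0383 and 0.0396. Each ratio was higher in both APP libraries than in both WT libraries (exact two-sided permutation p = 0.333, the smallest possible). As Col6a3 was chosen because it was called, these ratios follow from that call and are not separate evidence. The permutation test cannot reach a smaller p with these libraries, so it decides nothing.

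The remaining type VI chains were rare. Col6a4 had 58 and 33 counts in APP and 22 and 68 in WT, and Col6a5 had 10 and 17 in APP and 32 and 11 in WT, with overlapping groups in both. Col6a6 had 2 counts in each APP library, and 16 and 9 in WT. Its groups did not overlap, and the ratio of APP to WT on pooled counts was 0.212, with an exact (Clopper-Pearson) interval from 0.0536 to 0.614 that covers counting error only. Col6a6 did not pass the test (edgeR adjusted p = 0.290).

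**Figure D2:**
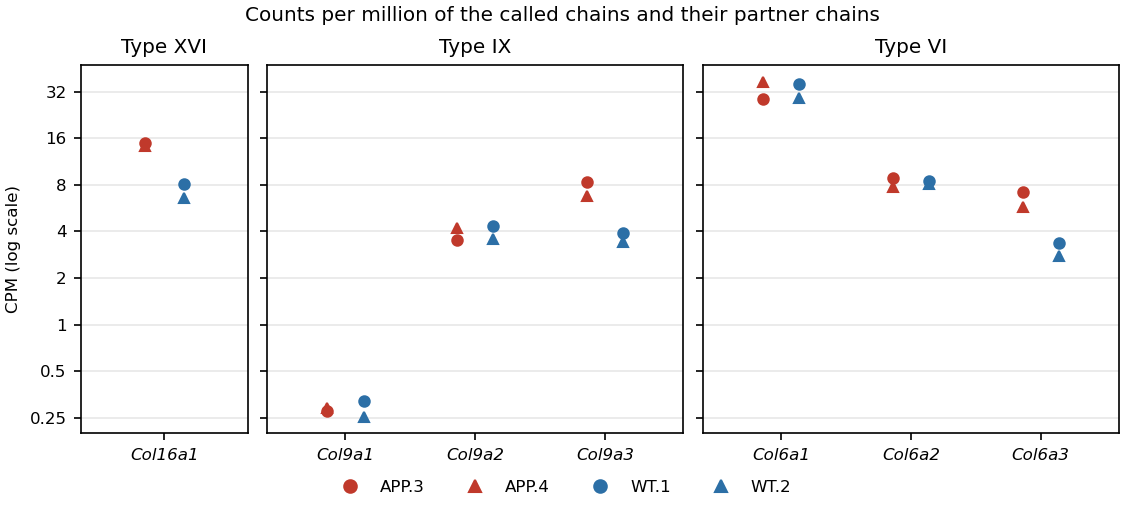
CPM on a log scale of the called genes and of the chains they assemble with, with 1 point per library, red for APP and blue for WT. Col16a1, Col9a3 and Col6a3 are higher in both APP libraries, while the libraries of Col9a1, Col9a2, Col6a1 and Col6a2 overlap between the groups.

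**Figure D3:**
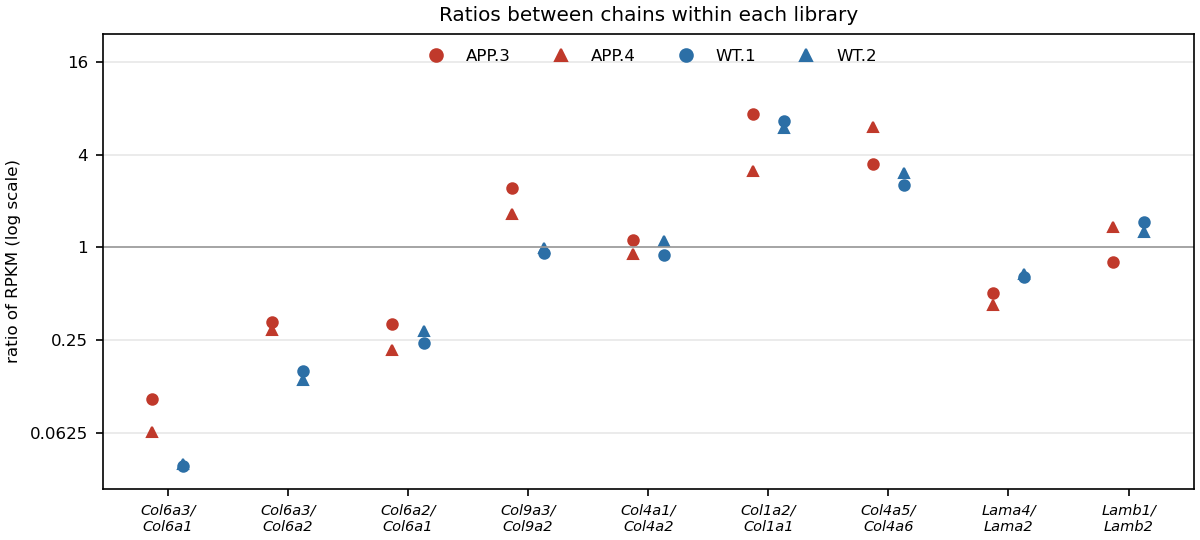
Ratio of RPKM between chains in each library, on a log scale, with 1 point per library, red for APP and blue for WT. The ratios of Col6a3 to Col6a1 and Col6a2 and of Col9a3 to Col9a2 are higher in both APP libraries, as is that of Col4a5 to Col4a6, and Lama4 to Lama2 is lower in both, while the other 4 ratios overlap between the groups.

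Markers of several cell types were measured beside these results. All 7 microglial markers were estimated higher in APP and 5 were called (Cd68, Csf1r, Cst7, Cx3cr1 and Itgax), with a summed level of 175 and 209 CPM in APP and 111 and 110 CPM in WT. Cst7 was at 0 counts in WT.2 and at 2 in WT.1. Of 6 astrocyte markers, all were estimated higher and Gfap and Aqp4 were called, at 1337 and 1546 CPM in APP and 922 and 910 CPM in WT. All 9 oligodendrocyte markers were estimated higher and Mag was called, at 1614 and 1400 CPM against 1027 and 1159 CPM. The 7 markers of oligodendrocyte precursors were estimated higher and 0 were called, at 147 and 153 CPM against 123 and 122 CPM. The sums of all 4 lists were thus higher in both APP libraries, as were Col16a1, Col9a3 and Col6a3, and the part of these cells in those genes was not tested. Of the 7 neuron markers, 6 were estimated lower and 1 higher in APP, with 0 called. They summed to 3371 and 3212 CPM in APP and 3628 and 3566 CPM in WT, lower in both APP libraries. Snap25 made up much of these sums, at 1921 and 1639 CPM in APP and 1940 and 1973 CPM in WT. For the cells known to make most vascular and meningeal matrix, 9 of 12 endothelial markers (median log2 fold change -0.07), 6 of 10 mural markers (median -0.13) and 9 of 11 markers of leptomeningeal fibroblasts (median -0.17) were estimated lower in APP. Their summed levels overlapped between the groups. Summed levels were 88.0 and 84.3 CPM in APP and 90.7 and 83.9 CPM in WT for endothelial markers, 113 and 118 against 115 and 107 CPM for mural markers, and 62.7 and 47.6 against 64.6 and 54.7 CPM for fibroblast markers, with 0 called in each list. Choroid plexus markers summed to between 5.75 and 7.95 CPM. The 6 striatal markers summed to 134 CPM in APP.3 and 292 CPM in APP.4, with the WT libraries between. The 5 thalamic markers summed to 207 and 189 CPM in APP and 208 and 199 CPM in WT. Of them, 3 were estimated higher and 2 lower in APP, and 1, Calb2, was called higher.

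The chains of the vascular basement membrane did not pass the test. Col4a1 and Col4a2, which form the main type IV trimer, lie head to head on chromosome 8 with 22 bases of overlap. Col4a1 had 30.1 and 27.2 CPM in APP and 27.2 and 31.5 CPM in WT, and Col4a2 had 26.3 and 29.1 CPM in APP and 29.9 and 27.8 CPM in WT. Their groups overlapped, with log2 fold changes of -0.04 (95% interval -0.26 to 0.18) and -0.06 (95% interval -0.26 to 0.14). The ratio of Col4a1 to Col4a2 per length lay between 0.888 and 1.11 in the 4 libraries. A fold change of 1.5 is outside the intervals of both genes.

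The gamma chain Lamc1, found in most laminins, gave 27.9 and 30.5 CPM in APP and 28.4 and 28.7 CPM in WT. Its groups overlapped, with a log2 fold change of 0.03 (95% interval -0.16 to 0.23).

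None of the alpha and beta chains of the same membrane was called. Lama2, the alpha chain laid down by astrocytes, had 24.8 and 24.2 CPM in APP and 21.5 and 21.8 CPM in WT. Its groups did not overlap, but the difference was small (log2 fold change 0.18, 95% interval -0.01 to 0.37, edgeR adjusted p = 0.492). Lama4, an endothelial alpha chain, had 7.88 and 6.48 CPM in APP and 8.71 and 9.19 CPM in WT (log2 fold change -0.32, 95% interval -0.62 to -0.02, edgeR adjusted p = 0.418). Lama5, the other endothelial alpha chain, had 104 and 87 counts in APP and 112 and 86 in WT, or means of 3.20 ± 0.560 and 2.49 ± 0.0851 CPM (log2 fold change 0.36, 95% interval -0.09 to 0.81). Lama4 was thus lower and Lama5 higher in both APP libraries, and neither passed the test. The ratio of Lama4 to Lama2 per length was 0.506 and 0.425 in APP and 0.644 and 0.671 in WT (exact two-sided permutation p = 0.333, the smallest possible). Both are alpha chains, so this ratio compares chains of different trimers, and it follows from their estimates of opposite sign. The beta chain Lamb1 had 12.8 and 16.7 CPM in APP and 17.9 and 15.6 CPM in WT (log2 fold change -0.18). The other beta chain, Lamb2, had 15.4 and 11.9 CPM in APP and 11.9 and 12.1 CPM in WT (log2 fold change 0.18). The groups overlapped in both beta chains, and the intervals of both excluded a fold change of 1.5.

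The minor type IV chains, which form the networks of kidney and other specialised membranes, were rarer. Col4a5 was the most abundant of them, with 5.57 and 5.16 CPM in APP and 4.16 and 4.37 CPM in WT (log2 fold change 0.33, 95% interval -0.00 to 0.67, edgeR adjusted p = 0.463). Both APP libraries were above both WT libraries. Col4a3, at 8 and 12 counts in APP and 31 and 22 in WT, was lower in both APP libraries (log2 fold change -0.99, edgeR adjusted p = 0.461), while Col4a4, whose gene starts 71 bases from Col4a3 on the other strand, had 11 and 30 counts in APP, 22 and 30 in WT, and overlapping groups. Col4a6 had overlapping groups as well. The ratio of Col4a5 to Col4a6 per length was 3.47 and 6.04 in APP and 2.54 and 3.03 in WT (exact two-sided permutation p = 0.333, the smallest possible).

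Per length, the membrane collagen Col25a1 had the highest level of the 54 members, with a mean of 13.5 RPKM over the libraries. Col25a1 encodes a neuronal collagen whose shed ectodomain is a known component of amyloid plaques. It had 68.1 and 58.2 CPM in APP and 57.9 and 53.7 CPM in WT, with means of 63.2 ± 7.05 and 55.8 ± 2.94 CPM (SD, n = 2 each). The groups did not overlap, but APP.4 and WT.1 differed by less than the libraries of a group did. The log2 fold change was 0.18 (SE 0.09, 95% interval -0.02 to 0.38, edgeR adjusted p = 0.520), and the interval excludes a fold change of 1.5. Of the other membrane collagens, Col13a1, Col17a1 and Col23a1, 0 were called.

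Col19a1 came next to Col25a1 at 12.0 RPKM, followed by Col6a1 at 7.98, Col4a1 at 4.39, Col4a2 at 4.38 and Lamc1 at 3.79 RPKM. Adjacent in level, Col25a1 and Col19a1 were at 12.6 ± 0.579 and 12.5 ± 0.486 RPKM in WT (SD, n = 2 each). In APP they were at 14.4 ± 1.31 and 11.5 ± 1.28 RPKM (SD, n = 2 each). Their order was thus within the spread in WT. Col4a1 and Col4a2 likewise did not differ beyond their spread. The called genes were lower in the order. Col16a1 was at 2.81 ± 0.0895 RPKM in APP and 1.40 ± 0.207 in WT, Col9a3 at 2.64 ± 0.388 and 1.29 ± 0.129 RPKM, and Col6a3 at 0.648 ± 0.108 and 0.309 ± 0.0398 RPKM (SD, n = 2 each). At the bottom, Col6a6 had a mean of 0.0214 RPKM.

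**Figure D4:**
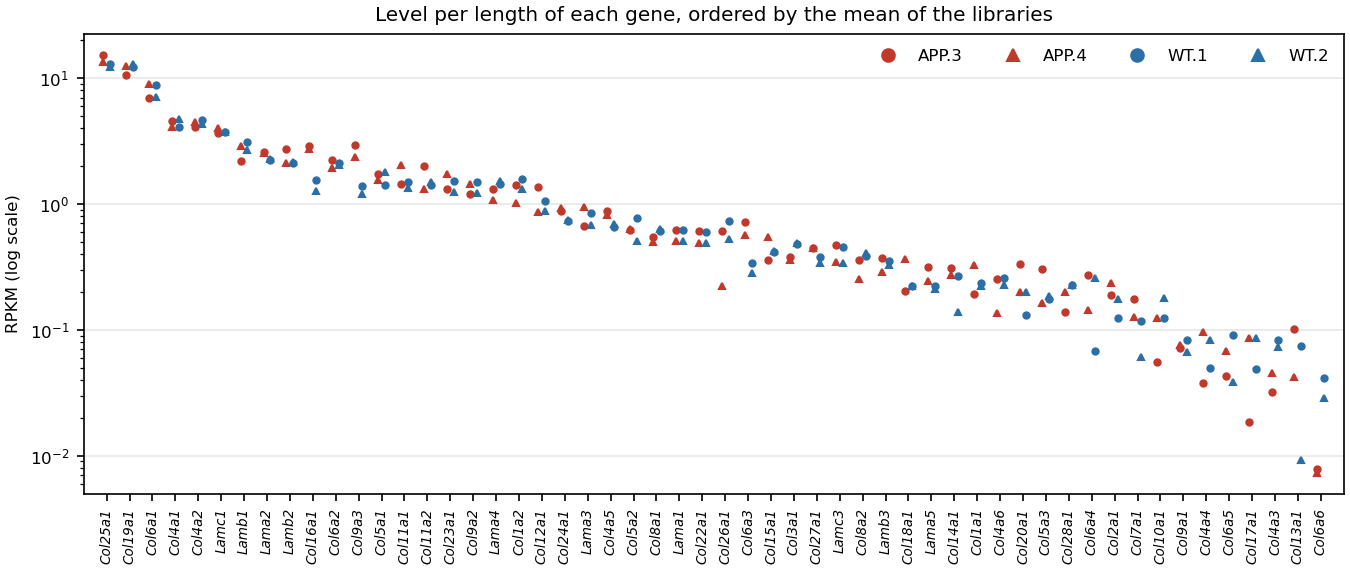
RPKM on a log scale of each of the 54 genes in each library, ordered by the mean of the libraries, red for APP and blue for WT. Col25a1 and Col19a1 stand above 10 RPKM, and the scatter between libraries widens toward the rare genes on the right, where Col6a6 is the lowest.

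None of the 11 fibrillar collagens was called, and 8 were estimated higher and 3 lower in APP, from -0.39 to 0.51 on the log2 scale. Col5a1, which nucleates fibrils, had 14.6 and 12.9 CPM in APP and 11.8 and 15.1 CPM in WT (log2 fold change 0.04, 95% interval -0.26 to 0.33). Col3a1, a fibrillar chain of vessel walls and meninges, had 61 and 62 counts in APP and 117 and 97 in WT, or means of 2.05 ± 0.0784 and 2.70 ± 0.0539 CPM. The groups of Col3a1 did not overlap, with a log2 fold change of -0.39 (95% interval -0.85 to 0.06, edgeR adjusted p = 0.543). The type I chains Col1a1 and Col1a2 had log2 fold changes of 0.17 and -0.25 with overlapping groups.

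The 3 short-chain collagens were all estimated lower in APP, and 0 were called. Col8a1, a chain of the network collagen of vessel walls, had 2.80 and 2.55 CPM in APP and 3.14 and 3.22 CPM in WT. Its partner Col8a2 had 1.56 and 1.10 CPM in APP and 1.66 and 1.78 CPM in WT. Both chains of type VIII were therefore lower in both APP libraries, with log2 fold changes of -0.25 (95% interval -0.67 to 0.17) and -0.38 (95% interval -0.98 to 0.23). Col7a1, which forms the anchoring fibrils of skin, had 1.62 and 1.16 CPM in APP and 1.09 and 0.564 CPM in WT (log2 fold change 0.70, 95% interval -0.11 to 1.52).

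The basement membrane collagens Col15a1 and Col18a1 were not called. Col15a1 had 1.83 and 2.77 CPM in APP and 2.11 and 2.14 CPM in WT, and its log2 fold change was 0.12 (95% interval -0.42 to 0.66). Col26a1 had 48 and 19 counts in APP and 88 and 51 in WT, with overlapping groups (log2 fold change -0.63, edgeR adjusted p = 0.622). It was called lower when APP.3 was left out (log2 fold change -1.51, edgeR adjusted p = 0.0247). The laminins Lama1, Lama3, Lamb3 and Lamc3 and the collagen Col28a1 were not called.

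Of the 60 protein-coding transcripts of these genes, 3 passed both cut-offs when each transcript was tested on its own, 1 for each called gene. A further 22 transcripts of other types, such as processed transcripts and retained introns, belonged to 15 of the genes and were kept apart. Summed per gene, 0 of these 15 features were called by edgeR's quasi-likelihood test, 1 had an unadjusted p under 0.05, and their median log2 fold change was -0.14. That feature belonged to Col6a2, whose counts were 7 and 4 in APP, and 25 and 16 in WT. The non-coding transcript of Col16a1 had 15, 20, 18 and 9 counts, a log2 fold change of 0.78 that did not pass the test (edgeR adjusted p = 0.609).

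Genes that act with collagens and laminins were counted in lists. Of 17 measured partners in the basement membrane, 2 rose, 0 fell and 15 did not pass the test. Sparc, a matrix protein that binds collagens, had 66.1 and 84.6 CPM in APP and 41.9 and 44.5 CPM in WT (log2 fold change 0.80, SE 0.11, edgeR adjusted p = 0.00546). Its relative Smoc1 had 6.05 and 7.03 CPM in APP and 3.21 and 3.44 CPM in WT (log2 fold change 0.98, SE 0.16, edgeR adjusted p = 0.0146). Both were higher in both APP libraries. Of 28 measured enzymes and chaperones that modify, fold, cleave or crosslink collagen, 0 passed both cut-offs by edgeR's test, with a median log2 fold change of 0.06.

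Of 15 measured receptors for collagen and laminin, Lair1, an inhibitory collagen receptor of immune cells, rose and 14 did not pass the test. Lair1 gave 12.9 and 15.4 CPM in APP and 7.89 and 9.05 CPM in WT (log2 fold change 0.75, SE 0.13, edgeR adjusted p = 0.0193). Of 19 measured matrix proteases and inhibitors, Ctss, a lysosomal protease of microglia, passed both cut-offs. Ctss gave 102 and 136 CPM in APP and 52.9 and 57.8 CPM in WT (log2 fold change 1.11, SE 0.12, edgeR adjusted p = 0.00143). Lair1 and Ctss were higher in both APP libraries, as the summed level of the microglial markers was. The part of microglia in these 2 genes was not tested. Of 19 measured genes of the TGF-beta pathway, which drives collagen transcription in many cells, the receptor Tgfbr2 passed both cut-offs. Tgfbr2 gave 12.2 and 12.0 CPM in APP and 6.21 and 6.77 CPM in WT (log2 fold change 0.90, SE 0.12, edgeR adjusted p = 0.00466). Chosen after their values were seen, Tgfbr1 (log2 fold change 0.52, edgeR adjusted p = 0.0220) and the protease Mmp17 (log2 fold change -0.35, edgeR adjusted p = 0.0488) had an FDR under 0.05 below the fold cut-off. Of 25 other matrix proteins such as fibronectin, tenascins and proteoglycans, 0 passed both cut-offs by edgeR's test. Together 5 of the 123 genes measured in these 6 lists were called (4.07%, beside 1.29% of protein-coding genes and 0.890% of all features). The lists hold protein-coding genes only. The medians over the partner, receptor, protease, TGF-beta and other matrix lists were 0.19, 0.19, 0.15, 0.22 and 0.05 on the log2 scale, beside 0.00 over all features.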

How the data were processed

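RNA from cortex was depleted of ribosomal RNA and sequenced in strand-specific read pairs. The authors aligned the reads with FANSe2 to Ensembl mouse RNA, allowing mismatches, and deposited raw counts of reads per transcript. The submitters' processing notes name CASAVA 1.8, edgeR and the human build hg19. Per-library log CPM values (4 columns) and the authors' fold changes, mean CPM, p-values and FDR were not used.

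Of 37539 transcripts, 98.2% were matched to GENCODE M21 by identifier. Protein-coding transcripts were summed per gene, and a gene's other transcripts formed a separate feature. Counts were tested in R 4.3.3 with edgeR 4.0.16 (glmQLFit, TMM, at least 10 counts over the libraries, Benjamini-Hochberg adjustment), with DESeq2 1.42.0 as an alternative, and tables were made in Python 3.11.15. CPM and RPKM use TMM library sizes and GENCODE transcript lengths. The test was checked on simulated counts with a shared dispersion for all features and changes placed only in well-counted features. This check does not cover changes in rare genes or dispersions that differ between genes.

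The members, the lists and the tests were chosen with earlier results of these data known. Genes named with values were the called members, their partner chains, the chains of the brain vascular basement membrane, Col25a1, the member of highest mean CPM in each class, and the 6 uncalled members of at least 1 CPM with the largest change between groups that did not overlap. Col1a1, Col1a2, Col4a3 and Col4a4 were chosen after their values were seen. The ratios between chains were not among the planned results. Of related lists the called genes were named. A further gene that the rule matches is not reported here and enters no count of members. The WT columns were matched to mice by number and the APP columns to their group.  The exact interval of Col6a6 pools the counts of both mice of a group, so it covers counting error only. The SE of a log2 fold change was derived as its absolute value over the square root of the F statistic of edgeR's test. The 95% interval is the estimate plus or minus the SE times a t quantile. These intervals include the dispersion between libraries. Counts carry no molecular identifiers.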

Additional observations from a re-analysis of the deposited data

How the results depend on the processing

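The 3 called members passed both cut-offs with DESeq2, with the exact and the likelihood ratio test, under the other scalings and filters, and with transcripts summed in other ways or kept single. Raising the fold cut-off to 2 left 2 members (Col6a3 and Col9a3), 121 features and 1 related gene. With letter case kept, 3 of 14 members were called and their median log2 fold change was 0.15. All features called, 210 in the main comparison, were 383 with the exact test, 432 with the likelihood ratio test and 319 with each transcript a feature. Leaving out 1 library gave 0 to 4 members called (4 without APP.3, 3 without APP.4, 1 without WT.1, 0 without WT.2), 74 to 657 features, 1 to 8 related genes and a member median of -0.0082 to 0.15, where the lone library was assumed to vary like the other group. The earlier quasi-likelihood method, letter case and summing by deposited symbol were added after seeing the data. The cause of these shifts was not tested.

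Some uncalled members changed sign. Col6a2 was -0.0039 with DESeq2, -0.0046 with its size factors, -0.0015 with 10 counts in every library, -0.056 with all transcripts summed, -0.0057 by transcript and -0.0013 by deposited symbol. Without 1 library, log2 fold changes ranged from -0.22 to 0.375 for Col15a1, -0.14 to 0.0726 for Col4a1, -0.13 to 0.0048 for Col4a2, -0.14 to 0.22 for Col5a1, -0.19 to 0.17 for Col6a1, -0.10 to 0.0914 for Col6a2, -0.33 to 1.60 for Col6a4, -0.69 to 0.53 for Col6a5, -0.165 to 0.15 for Col9a1, -0.18 to 0.12 for Col9a2, -0.0159 to 0.36 for Lamb2 and -0.0299 to 0.0897 for Lamc1. No paired analysis was run, because no pairing of APP with WT mice is described. The APP columns also carry other numbers than the labels and match only to their group.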
